A study of Mus musculus with 16 samples.

Results

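The insulin and insulin-like growth factor (IGF) receptor pathway was followed through 10 genes, selected by symbol from the 35682 genes of the deposited count table, and all 10 were found. They were Igf1, Insr, Igf1r, Igf2r, Irs1, Irs2, Grb14, Pik3r1, Akt1 and Akt2. RNA came from adult ventricular myocytes of 16 mice, 8 wild-type (WT) mice and 8 littermates of the B3AR-Tg line, whose name stands for a transgene of the beta-3 adrenoceptor. Both genotypes had TAC (transverse aortic constriction), surgery in which a band tightens the aortic arch and the left ventricle must pump against a higher pressure, and cells were taken 9 weeks later. No unoperated animals were included, and the labels used here give neither the promoter and species of the transgene nor the sex and age of the mice. Myocytes were isolated by Langendorff perfusion and plated for 1 h, and 500 ng of RNA went into each ribodepleted library.

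Insulin and IGF-1 bind the receptor tyrosine kinases encoded by Insr and Igf1r, which phosphorylate the docking proteins Irs1 and Irs2. These recruit phosphoinositide 3-kinase, whose regulatory subunit p85 alpha is encoded by Pik3r1, and the lipid it makes activates the kinases Akt1 and Akt2. Akt2 is known for insulin-stimulated glucose transport and Akt1 for growth. Grb14 is an adaptor that binds the activated insulin receptor and inhibits it, and Igf2r, the mannose 6-phosphate receptor, clears IGF-2 and sorts lysosomal enzymes without kinase activity. In the heart the pathway sets physiological growth and fuel use.

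Libraries held between 5985335 and 14365864 counts. Mouse Adrb3 was at 0 to 0.393 CPM (counts scaled to a common library size with TMM factors) in WT and 0 to 0.313 CPM in B3AR-Tg, so it does not check the genotype labels. Adgrb3, an adhesion receptor gene and not an adrenergic one, held 0 to 3 counts in WT libraries and 247 to 723 in B3AR-Tg libraries, which separates the groups as labelled. Ventricular myocyte markers (Myh6, Tnnt2, Tnni3, Actc1, Ryr2, Pln, Myl2 and Ttn) summed to 64192 to 88735 CPM in WT and 70976 to 108090 CPM in B3AR-Tg, while 7 fibroblast markers summed to 35.9 to 105 CPM and 10.8 to 46.5 CPM. Across the table, 537 of 10945 tested genes passed an adjusted p of 0.05 between genotypes (edgeR quasi-likelihood test, Benjamini-Hochberg over all tested genes), 222 higher (2.03%) and 315 lower (2.88%) in B3AR-Tg. With libraries scaled by their totals only, the split was 346 higher and 165 lower.

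Of the 10 pathway genes, 9 were abundant enough to be tested, and Akt2 alone passed the threshold, being higher in B3AR-Tg. That is 11.1% of the tested members against 4.91% of all tested genes, a single gene. Groups without overlap were seen for 0 of the 9, against 0.448% of all tested genes. The median log2 fold change of the 9 was 0.02, against 0.01 for all tested genes, and 5 of the 9 were above 0. The plot of levels by animal gives every value behind these counts.

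**Figure D1:**
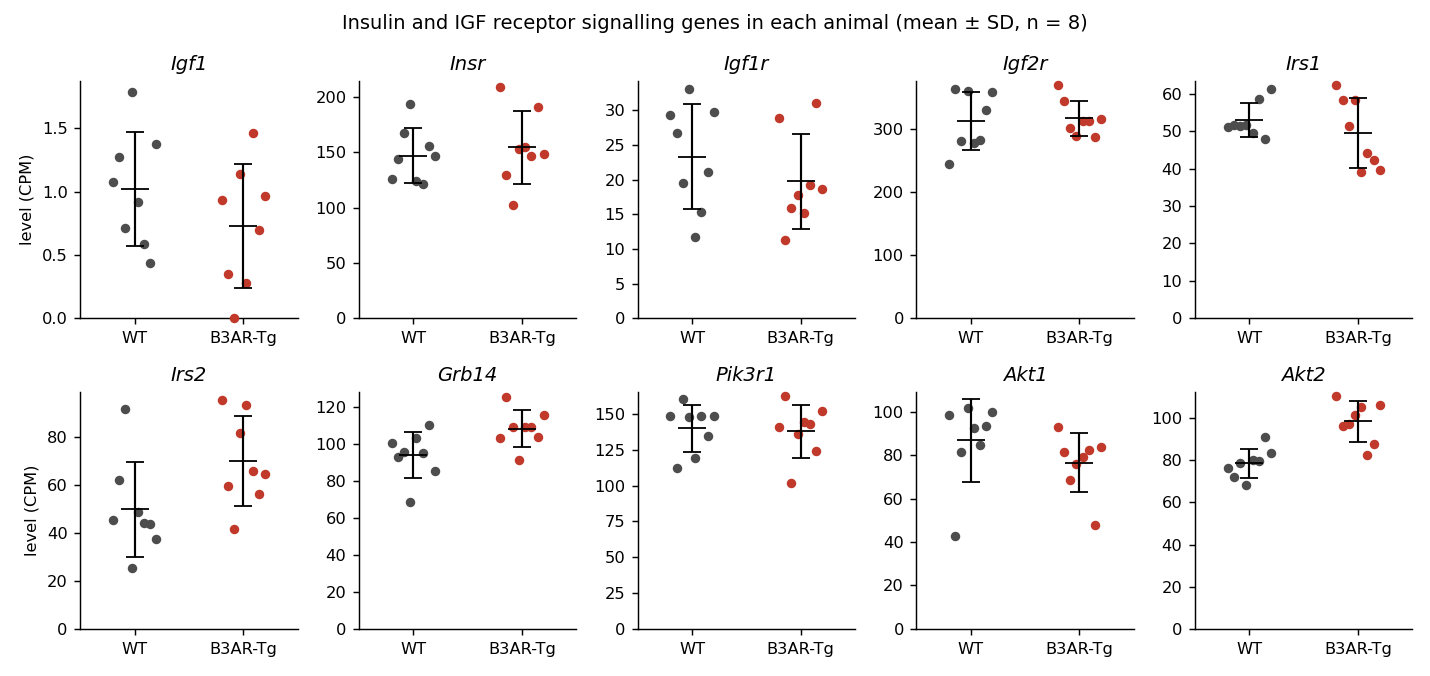
Level of each of the 10 genes (vertical axis, CPM) in every animal, with WT in grey and B3AR-Tg in red; horizontal ticks and bars are the mean ± SD over 8 animals. Akt2 was between 68.2 and 90.9 CPM in WT and between 82.6 and 110 CPM in B3AR-Tg, while Igf1 stayed under 2 CPM in every animal.

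To compare genes with one another, levels were divided by the kilobases of exon in GENCODE M21. On this per-length scale Igf2r was highest, with a median of 33.6 CPM per kilobase over the 16 animals, followed by Akt1 (20.3), Grb14 (14.4), Pik3r1 (14.3), Akt2 (12.0), Insr (10.8), Irs2 (9.15), Irs1 (5.62), Igf1r (1.15) and Igf1 (0.0935). Igf2r stood above Akt1 in 16 of 16 animals, and Irs1 stood above Igf1r in 16 of 16. Grb14 and Pik3r1 could not be ordered, since Grb14 was the higher in 3 of 8 WT and 7 of 8 B3AR-Tg animals. Other neighbours were counted by group, with no test of the difference. Pik3r1 was above Akt2 in 8 of 8 WT animals but in 4 of 8 B3AR-Tg animals, and Akt2 was above Insr in 5 of 8 WT and 7 of 8 B3AR-Tg animals. The insulin receptor transcript was therefore well above the IGF-1 receptor transcript in these cells, at medians of 10.8 and 1.15 CPM per kilobase. The counts of Insr over Igf1r within a library had a median ratio of 6.61 in WT (4.27 to 10.5) and 7.83 in B3AR-Tg (6.15 to 11.5), with overlapping ranges.

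Akt2, the isoform tied to glucose transport, was lowest at 68.2 CPM, at a median of 79.2 CPM and highest at 90.9 CPM in WT. In B3AR-Tg it was lowest at 82.6 CPM, at a median of 99.5 CPM and highest at 110 CPM. All 8 B3AR-Tg animals were above the WT median and 6 of 8 were above the highest WT animal, so the groups overlapped only at WT replicates 7 and 8 and B3AR-Tg replicates 6 and 7. The means were 78.6 ± 6.90 CPM and 98.4 ± 9.57 CPM (SD, n = 8), a log2 fold change of 0.32, standard error 0.08 (edgeR adjusted p = 0.0192), or 1.25-fold with a 95% interval of 1.12 to 1.40. Leaving out any 1 animal gave log2 fold changes of 0.30 to 0.36.

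Markers of load and of other cells also moved with genotype. A load marker score, the mean of Nppa, Nppb, Myh7, Acta1 and Ankrd1 on the log2 scale, ran from 0.07 to 2.03 in WT and from −1.82 to 0.29 in B3AR-Tg, and only 1 B3AR-Tg animal was above the lowest WT animal. With that score in the model the log2 fold change of Akt2 was 0.14 (edgeR adjusted p = 0.788). A score of fibroblast, endothelial, mural and leukocyte markers ran from 0.06 to 0.74 in WT and from −1.37 to 0.28 in B3AR-Tg. With it the log2 fold change of Akt2 was 0.36 (edgeR adjusted p = 0.104). Both scores differ with genotype, so their part and that of genotype cannot be told apart in these animals.

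Akt1 did not pass the test. It was lowest at 42.7 CPM, at a median of 93.2 CPM and highest at 102 CPM in WT, and lowest at 47.9 CPM, at a median of 80.3 CPM and highest at 93.2 CPM in B3AR-Tg. The WT median was above all 8 transgenic animals, and 4 WT animals were above the highest B3AR-Tg animal, but WT replicate 2 was the lowest of all 16. The log2 fold change was −0.18 with a 95% interval of −0.49 to 0.12 (edgeR adjusted p = 0.531). Without WT replicate 2 it was −0.28 (adjusted p = 0.158) and without B3AR-Tg replicate 7 it was −0.105 (adjusted p = 0.716). With the load score in the model it was −0.56 (adjusted p = 0.529), and with the other-cell score −0.30 (adjusted p = 0.496).

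The ratio of the Akt isoforms within a library does not depend on scaling. Counts of Akt1 over counts of Akt2 had a median ratio of 1.11 in WT (0.595 to 1.49) and 0.770 in B3AR-Tg (0.547 to 0.998). In 7 of 8 WT animals the ratio was above every B3AR-Tg animal, and WT replicate 2 was the exception at 0.595. Reads that match more than 1 Akt gene may have been divided between them in a way the sources used here do not give. The ratio is given as a description without a test, because the genes were chosen with earlier results of these data known.

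**Figure D2:**
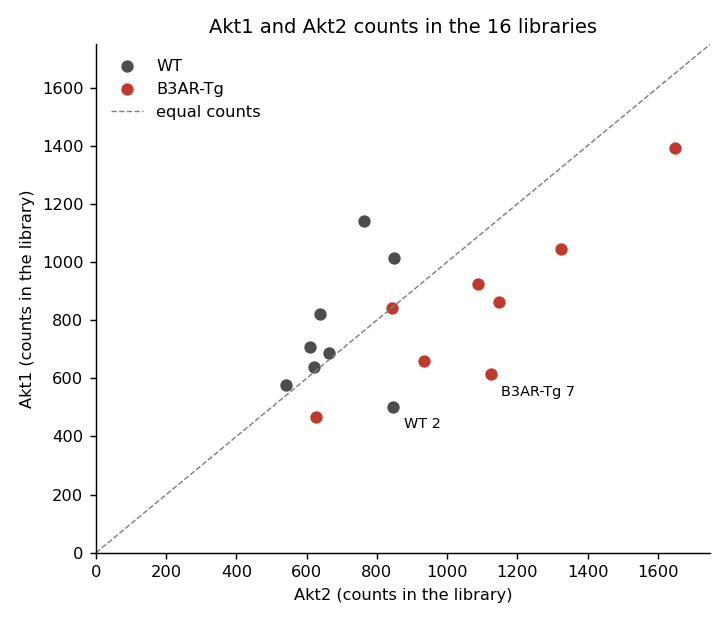
Counts of Akt1 (vertical axis) against counts of Akt2 (horizontal axis) in each of the 16 libraries, WT in grey and B3AR-Tg in red; the dashed line marks equal counts. Of the WT libraries 7 lie above the line and WT replicate 2 lies below it, and all 8 B3AR-Tg libraries lie below it, with ratios up to 0.998.

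The sequences before the starts of the Akt genes are shown because of the ratio just described, and that of Irs2 because its transcript varied most among the tested members within WT. They are the 250 bases before the start in RefSeq on GRCm38.p6, 5′ to 3′ on the strand of the gene, and 9 of the 10 members had an entry. Capitals mark matches on either strand to the GC box (GGGCGG), the cAMP response element (TGACGTCA), the FoxO site (GTAAACA), the ERR site (TNAAGGTCA) or the E box (CACGTG). Akt1 and Akt2 have further starts inside the gene, which are not shown.
Akt2, chr7:27591302-27591551, plus strand: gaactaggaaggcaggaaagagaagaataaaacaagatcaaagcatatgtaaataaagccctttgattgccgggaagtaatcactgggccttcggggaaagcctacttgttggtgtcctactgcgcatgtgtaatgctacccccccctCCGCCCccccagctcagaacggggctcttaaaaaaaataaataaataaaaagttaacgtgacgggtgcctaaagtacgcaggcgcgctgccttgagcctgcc
Akt1, chr12:112674885-112675134, minus strand: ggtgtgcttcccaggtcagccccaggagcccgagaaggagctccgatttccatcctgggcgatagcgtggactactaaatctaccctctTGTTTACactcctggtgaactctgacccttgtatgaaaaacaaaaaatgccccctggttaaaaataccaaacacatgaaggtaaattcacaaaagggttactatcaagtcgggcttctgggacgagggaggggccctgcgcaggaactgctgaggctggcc
Irs2, chr8:11008930-11009179, minus strand: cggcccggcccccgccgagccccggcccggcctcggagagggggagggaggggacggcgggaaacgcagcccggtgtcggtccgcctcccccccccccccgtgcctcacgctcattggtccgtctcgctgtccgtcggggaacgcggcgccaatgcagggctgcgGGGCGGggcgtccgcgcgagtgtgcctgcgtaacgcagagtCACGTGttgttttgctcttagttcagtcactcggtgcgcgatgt

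The Akt2 window held 1 GC box and 10 CpG at 48.8% GC, and none of the other motifs. The Akt1 window held 1 FoxO match 161 bases before the start, at 52% GC, and no GC box. A further Akt1 start, whose window is not printed, had 4 GC boxes and 31 CpG at 78.4% GC. The Irs2 window held 1 GC box and 1 E box at 72.8% GC. Of 32851 windows of this length in the same table, 32.7% held a GC box, 3.17% the FoxO letters, 6.02% the E box, 1.55% the cAMP response element and 1.14% the ERR letters. A match is a run of letters and not a measured binding site.

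Irs2, the docking protein whose transcription is known to fall when insulin acts and to rise in fasting, was the most variable of the 9 tested members within WT. It was lowest at 25.4 CPM, at a median of 44.7 CPM and highest at 91.6 CPM in WT, and lowest at 41.8 CPM, at a median of 65.3 CPM and highest at 95.3 CPM in B3AR-Tg. In B3AR-Tg 7 of 8 animals were above the WT median, yet WT replicate 3, at 91.6 CPM, was above 6 of the 8. The log2 fold change was 0.49, with a standard error of 0.20 and a 95% interval of 0.07 to 0.91, and it did not pass (edgeR adjusted p = 0.184). Without WT replicate 3 it was 0.67 and passed (adjusted p = 0.0279). With the load marker score in the model it was −0.11 (adjusted p = 0.956).

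Irs1, the docking protein of the same family, held a narrow range in WT, from 48.0 to 61.2 CPM around a median of 51.6 CPM. B3AR-Tg animals spread from 39.2 to 62.3 CPM around a median of 47.7 CPM, and 4 of the 8 were below the lowest WT animal while 1 was above the highest. The log2 fold change was −0.10 with a 95% interval of −0.31 to 0.11 (edgeR adjusted p = 0.632). Within a library, Irs1 over Irs2 counts had a median ratio of 1.11 in WT (0.562 to 2.04) and 0.692 in B3AR-Tg (0.421 to 1.23). The ranges overlapped in this pair, with 3 WT animals above all B3AR-Tg animals.

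Grb14, the receptor inhibitor, was lowest at 69.0 CPM, at a median of 95.5 CPM and highest at 110 CPM in WT, and lowest at 91.3 CPM, at a median of 109 CPM and highest at 126 CPM in B3AR-Tg. In B3AR-Tg 7 of 8 animals were above the WT median and 2 were above the highest WT animal. The log2 fold change was 0.21 with a 95% interval of 0.02 to 0.39, and it did not pass over all genes (edgeR adjusted p = 0.196). With the load score in the model it was 0.02 (adjusted p = 0.990), and with the other-cell score 0.13 (adjusted p = 0.632). Irs2, Grb14 and Akt2 were the 3 members with an unadjusted p under 0.05, a level that 19.3% of all tested genes reached (8.71% higher and 10.6% lower).

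The receptors themselves showed no difference larger than the spread between animals. Insr was lowest at 121 CPM, at a median of 145 CPM and highest at 193 CPM in WT, and lowest at 103 CPM, at a median of 151 CPM and highest at 209 CPM in B3AR-Tg (log2 fold change 0.07, 95% interval −0.19 to 0.33, edgeR adjusted p = 0.811). The interval reaches from 0.875-fold to 1.26-fold. Igf2r ran from 244 to 363 CPM in WT, with a median of 305 CPM, and from 287 to 369 CPM in B3AR-Tg, with a median of 313 CPM (log2 fold change 0.02, interval −0.17 to 0.21, edgeR adjusted p = 0.931). Its direction was not settled, as 4 alternatives turned it. Pik3r1, the regulatory subunit, ran from 112 to 160 CPM in WT, with a median of 148 CPM, and from 102 to 162 CPM in B3AR-Tg, with a median of 142 CPM (log2 fold change −0.02, interval −0.22 to 0.18, edgeR adjusted p = 0.941). Its sign also turned under 5 alternatives. With the load score in the model the log2 fold changes of Insr, Igf2r and Pik3r1 were 0.27, 0.25 and −0.23 (edgeR adjusted p = 0.742, 0.650 and 0.690).

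Igf1r, the growth factor receptor, varied far more than these. It ran from 11.8 to 33.1 CPM in WT, with a median of 23.9 CPM, and from 11.2 to 31.1 CPM in B3AR-Tg, with a median of 18.2 CPM, so the groups covered nearly the same range. The log2 fold change was −0.24 with a 95% interval of −0.68 to 0.20 (edgeR adjusted p = 0.564). The sign was positive with the load marker score in the model (0.62, adjusted p = 0.561) and with the other-cell score (0.15, adjusted p = 0.829).

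Igf1, the ligand, was close to the limit of detection. WT libraries held 3 to 20 counts and B3AR-Tg libraries 0 to 15, and the gene did not pass the low-count filter. Its level was 1.02 ± 0.449 CPM (WT) and 0.729 ± 0.491 CPM (B3AR-Tg) (SD, n = 8). The library of B3AR-Tg replicate 3 had 0 counts, which allows a level of up to 0.313 CPM, taking 3 counts as the limit. With no filter the log2 fold change was −0.50, standard error 0.46 (edgeR adjusted p = 0.543), so no difference was detected at these low counts. Fibroblasts and macrophages are known sources of Igf1.

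**Figure D3:**
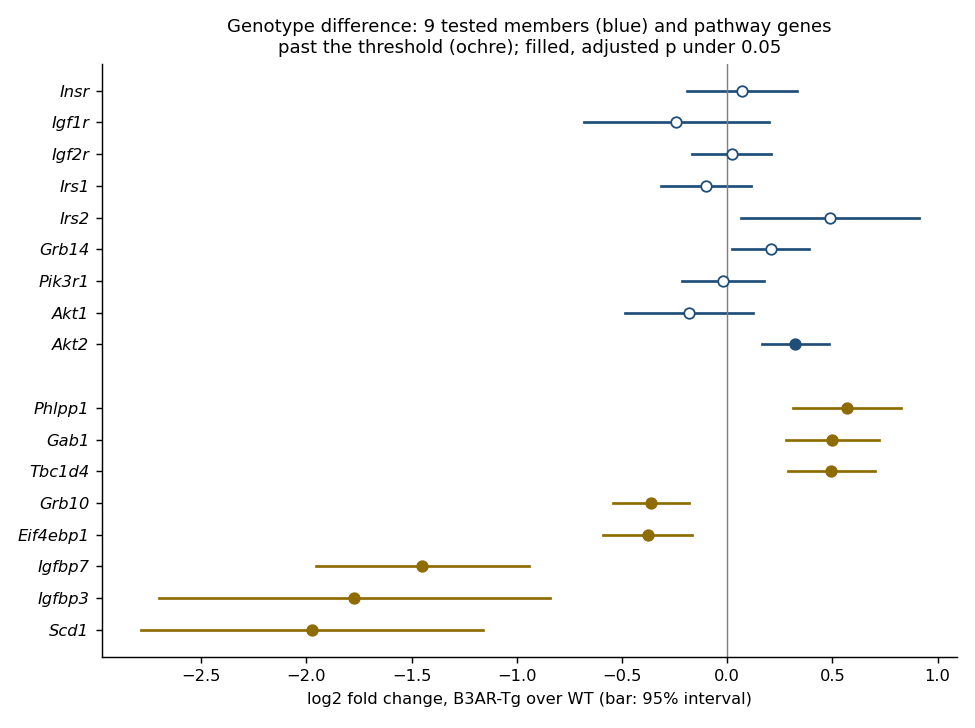
Log2 fold change of B3AR-Tg over WT (horizontal axis) with its 95% interval for the 9 tested members, in blue. In ochre are the genes of the wider pathway that passed the threshold and Scd1, from the insulin-induced list. Filled points have an adjusted p under 0.05. Akt2 is the filled blue point at 0.32, and the ochre points run from −1.97 (Scd1) to 0.57 (Phlpp1).

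Levels of the members were next compared with the load marker score among animals of 1 genotype, where genotype cannot contribute. In WT, 0 of the 9 members passed over all genes (edgeR quasi-likelihood test on the score), against 2.96% of all tested genes (2.09% rising and 0.868% falling with the score), and 2 had an unadjusted p under 0.05. Igf1r was the nearest, with a slope of 0.48 log2 units per unit of score and a standard error of 0.12 (adjusted p = 0.0519). The slope of Igf2r was 0.21 (adjusted p = 0.132). Igf1r passed without WT replicate 1 (0.50, adjusted p = 0.0352) and without WT replicate 2 (0.57, adjusted p = 0.0335). The 4 WT animals with the highest scores had Igf1r between 26.7 and 33.1 CPM, and the other 4 had 11.8 to 21.1 CPM.

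Irs2 had a slope of −0.30 log2 units per unit of load score in WT, standard error 0.16 (edgeR adjusted p = 0.366), and WT replicate 2 went against this slope. Without that animal the slope was −0.61 (adjusted p = 0.0272), but without WT replicate 3 it was −0.06 (adjusted p = 0.904) and without WT replicate 4 it was −0.16 (adjusted p = 0.635). Within B3AR-Tg the slopes were 0.35 for Igf1r, −0.32 for Irs2 and −0.05 for Igf2r. Their standard errors were 0.19, 0.17 and 0.10 (edgeR adjusted p = 0.998 for each). Akt2 had a slope of −0.07 in WT (adjusted p = 0.654) and −0.13 in B3AR-Tg (adjusted p = 0.998). Akt1 changed sign in WT on 1 animal, from −0.09 with all 8 to 0.14 without WT replicate 2. That animal has the highest load score of the WT group, 2.03. In B3AR-Tg, where 0% of tested genes passed, 0 of 9 members passed and 1, Akt1, had an unadjusted p under 0.05 (slope −0.36, adjusted p = 0.888). That slope leans on B3AR-Tg replicate 7, which has the highest load score of its group, and without it the slope was −0.10 (adjusted p = 0.841). Whether slopes differ between the genotypes was not tested.

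**Figure D4:**
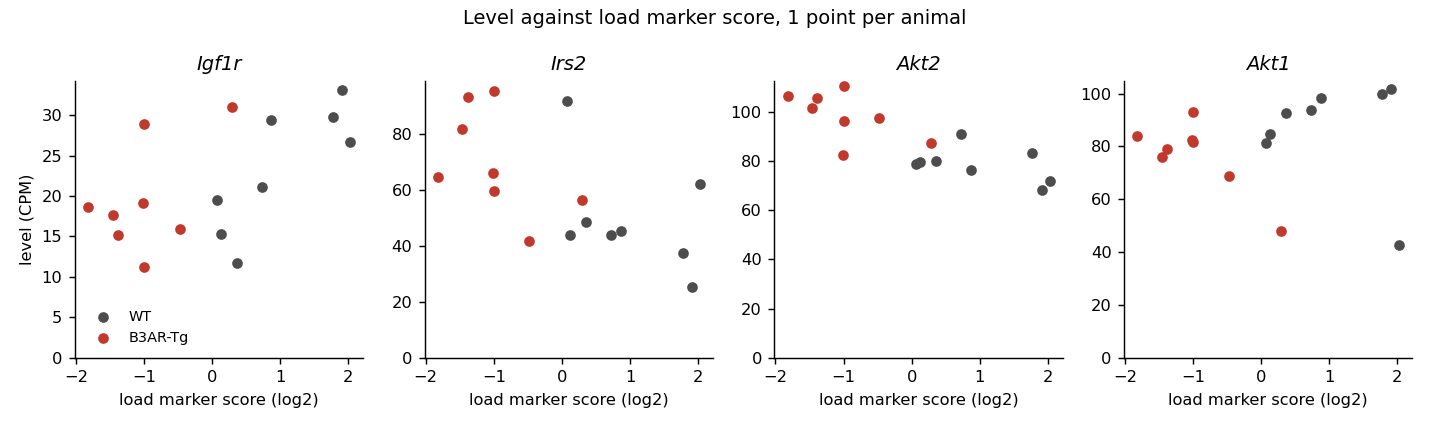
Level of Igf1r, Irs2, Akt2 and Akt1 (vertical axes, CPM) against the load marker score (horizontal axis, log2 units), 1 point per animal, WT in grey and B3AR-Tg in red. Among WT animals Igf1r is highest, at 26.7 to 33.1 CPM, in the 4 animals with the highest scores, and 1 WT animal stands low for Akt1 at 42.7 CPM.

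With the other-cell score, 0 of 9 members passed within WT and 0 of 9 within B3AR-Tg (edgeR quasi-likelihood test), against 0.00914% of all tested genes in each. At an unadjusted p under 0.05 there were 0 members in WT and 1 in B3AR-Tg. The latter was Igf1r, with a slope of 0.75 log2 units per unit of score and a standard error of 0.21 (adjusted p = 0.243). In a bulk library, fewer cells of a type and less RNA per cell cannot be told apart.

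The members did not vary as a block. Over the 16 animals, after removing each genotype's mean, the highest correlation between members was that of Insr with Igf1r (Pearson r = 0.655), followed by Pik3r1 with Akt1 (0.568) and Insr with Igf2r (0.403). The lowest was that of Igf1r with Grb14 (−0.547). These describe 16 animals and share each library's scaling. The genes most like Akt2 by the same measure were Hdac5 (r = 0.842), a class II histone deacetylase, Uqcrc1 (0.834), a core subunit of respiratory complex III, and Psap (0.831), the precursor of the lysosomal saposins. Their log2 fold changes were 0.14, 0.21 and 0.28, with edgeR adjusted p-values of 0.463, 0.152 and 0.099.

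Apart from lists of FoxO target and insulin-induced genes, counted separately below, the wider pathway was read from 95 listed genes other than the members. Of the 95, 73 were tested. Of these, 3 were higher and 4 lower in B3AR-Tg, which is 9.59% against 4.91% of all tested genes, and their median log2 fold change was 0.03. At an adjusted p under 0.1 there were 11 in place of 7, against 8.3% of all tested genes at that level. With the load score or the other-cell score in the model, the calls of all 7 were lost, though the log2 fold changes of some stayed near their size, as given for each gene. Few calls remained among all 10945 tested genes in these fits, 4 higher and 3 lower with the load score. With the other-cell score 21 were higher and 7 lower.

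Among ligands and binding proteins, 2 of 7 tested genes were lower and 0 higher. Igfbp7, a secreted protein that binds IGFs weakly and is abundant in vessel walls, spanned 9.96 to 32.3 CPM (WT) and 3.53 to 8.32 CPM (B3AR-Tg), so the groups did not overlap. It fell by 1.45 on the log2 scale (standard error 0.24, edgeR adjusted p = 0.00348), and in WT it rose by 0.69 per unit of load score (adjusted p = 0.0167). Within B3AR-Tg the slope of Igfbp7 was 0.10 (adjusted p = 0.998). Igfbp3, the main IGF carrier in blood, had medians of 3.27 CPM (WT) and 1.44 CPM (B3AR-Tg), and fell by 1.77 (adjusted p = 0.0256). WT replicate 8 alone reached 19.9 CPM, and without it the log2 fold change was −1.07 (adjusted p = 0.0547). The call was also lost without B3AR-Tg replicate 2, 5 or 8, at log2 fold changes of −1.68, −1.75 and −1.72 (adjusted p = 0.0513, 0.0548 and 0.0543), and with limma voom (−1.25, adjusted p = 0.0527). DESeq2 called Igfbp3, Igfbp7 and also Igfbp4, another IGF carrier (edgeR log2 fold change −1.16, adjusted p = 0.0777). Ins1, Ins2 and Igfbp1 had 0 CPM in all 16 animals.

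Fibroblast and endothelial markers were also fitted lower in B3AR-Tg, with 0 of 6 and 0 of 7 tested log2 fold changes above 0. Of the fibroblast markers, 3 of 6 tested passed as lower, with Tcf21 at 0 counts in at least 8 libraries, and 6 had an unadjusted p under 0.05 by edgeR. Of the endothelial markers, 2 of 7 passed as lower and 5 had an unadjusted p under 0.05 by edgeR. Endothelial sums were 78.7 to 117 CPM in WT and 36.4 to 140 CPM in B3AR-Tg. DESeq2 called 4 fibroblast and 3 endothelial markers, and limma voom 3 and 3. Over all tested genes, 2.88% passed as lower and 19.3% had an unadjusted p under 0.05. Of the mural markers 0 of 6 passed by edgeR (2 at an unadjusted p under 0.05; 0 passed by DESeq2 or limma voom), and of the leukocyte markers 0 of 3 (2 at an unadjusted p under 0.05; 0 by DESeq2 or limma voom). Mural markers summed to 83.0 to 143 CPM and 43.4 to 138 CPM, and leukocyte markers to 6.05 to 20.2 CPM and 1.06 to 9.34 CPM, in WT and B3AR-Tg. The median mural sum was 86.0 CPM in WT against 97.3 CPM in the transgenic animals, but Acta2 weighs heavily in it (means 39.1 and 52.3 CPM). Acta2 (log2 fold change 0.42) was the 1 mural marker of 6 tested that was fitted above 0, and their median was −0.46. With the other-cell score in the model, the log2 fold change of Igfbp7 was −0.92 (edgeR adjusted p = 0.148) and that of Igfbp3 was −1.53 (adjusted p = 0.230). With the load score they were −0.43 (adjusted p = 0.753) and −0.63 (adjusted p = 0.849). Which cells made these transcripts was not tested.

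Of the receptor and docking genes, 1 of 9 tested was higher. Gab1, a docking protein that recruits the phosphatase Shp2 and phosphoinositide 3-kinase, spanned 22.7 to 33.3 CPM (WT) and 26.4 to 45.8 CPM (B3AR-Tg), with 6 of 8 animals above the highest WT animal. Its log2 fold change was 0.50, standard error 0.11 (edgeR adjusted p = 0.0112). It was 0.41 with the load score in the model (adjusted p = 0.527) and 0.40 with the other-cell score (adjusted p = 0.166). Of the genes of phosphoinositide 3-kinase, PDK1, the mTOR complexes and their kinases counted here, which hold no Akt gene, 0 of 15 passed by edgeR, 0 by DESeq2 and 0 by limma voom, while 4 had an unadjusted p under 0.05 by edgeR, 4 by DESeq2 and 3 by limma voom. Their median log2 fold change was 0.04.

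Among inhibitors and phosphatases, 1 of 19 was higher and 1 lower. Phlpp1, a phosphatase that removes the activating phosphate of Akt, was higher by 0.57 on the log2 scale (edgeR adjusted p = 0.0130), with 7 of 8 B3AR-Tg animals above the highest WT animal. Its medians were 12.3 CPM (WT) and 17.7 CPM (B3AR-Tg), and its log2 fold change was 0.45 with the load score (adjusted p = 0.557) and 0.69 with the other-cell score (adjusted p = 0.0666). Grb10, the adaptor closest to Grb14 and likewise an inhibitor of the insulin and IGF-1 receptors, spanned 91.7 to 135 CPM (WT) and 72.3 to 104 CPM (B3AR-Tg). It fell by 0.36 (adjusted p = 0.0218), with 0 of 8 transgenic animals above the median of the WT animals. The call was lost with library totals as the scale (−0.29, adjusted p = 0.0983) and without WT replicate 4 (−0.32, adjusted p = 0.0505). With the load score it was −0.10 (adjusted p = 0.867), and with the other-cell score −0.50 (adjusted p = 0.0568). DESeq2 also called Socs3, a feedback inhibitor of cytokine and insulin receptors (edgeR log2 fold change 0.44, adjusted p = 0.0779).

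Of 23 tested Akt substrates and glucose transport genes, 1 was higher and 1 lower. Tbc1d4, also called AS160, is an Akt substrate that holds glucose transporter vesicles inside the cell until Akt phosphorylates it. It spanned 56.7 to 90.9 CPM (WT) and 85.6 to 119 CPM (B3AR-Tg), with 7 of 8 animals above the highest WT animal. Its log2 fold change was 0.49, standard error 0.10 (edgeR adjusted p = 0.00820). With the load marker score in the model it was 0.01 (adjusted p = 0.991), and with the other-cell score 0.47 (adjusted p = 0.104). Its slope per unit of load score was −0.25 within WT (adjusted p = 0.0618) and −0.24 within B3AR-Tg (adjusted p = 0.961). Eif4ebp1, the translation repressor that mTOR inactivates, fell by 0.38 (adjusted p = 0.0362), from a median of 41.9 CPM to 35.1 CPM, and its call was lost without any 1 of 8 animals (WT replicates 4, 7 and 8 and B3AR-Tg replicates 4 to 8), with log2 fold changes of −0.32 to −0.41 over the 16 such fits. With library totals as the scale it was −0.30 (adjusted p = 0.139), with the load score −0.20 (adjusted p = 0.787) and with the other-cell score −0.49 (adjusted p = 0.103). Slc2a4, the insulin-responsive glucose transporter, had a log2 fold change of 0.33 (adjusted p = 0.0725), and Tbc1d1, a paralog of Tbc1d4, had −0.67 (adjusted p = 0.0718). DESeq2 called both, and limma voom neither.

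Of 19 tested FoxO target genes, Irs2 and Insr among them, 0 passed by edgeR, while 3 had an unadjusted p under 0.05. DESeq2 called 1 (Gadd45a) and limma voom 0. The fitted log2 fold change was above 0 for 17 of the 19, with a median of 0.18, where 51.1% of all tested genes were above 0. It was also above 0 for 7 of 8 ventricular myocyte markers (median 0.14) and 17 of 23 Akt substrates and glucose transport genes (median 0.09). Among inhibitors and phosphatases it was above 0 for 9 of 19. Of 9 genes known to be induced by insulin, 1 was lower by edgeR. DESeq2 and limma voom also called Odc1, the first enzyme of polyamine synthesis (edgeR log2 fold change −0.23, adjusted p = 0.0908). Scd1, a fatty acid desaturase, spanned 1.28 to 7.80 CPM (WT) and 0.418 to 2.41 CPM (B3AR-Tg) and fell by 1.97 (standard error 0.39, edgeR adjusted p = 0.00771). It was at 4 to 31 counts in B3AR-Tg libraries, and with the other-cell score in the model its log2 fold change was −1.45 (adjusted p = 0.160), and with the load score −2.16 (adjusted p = 0.253).

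**Figure D5:**
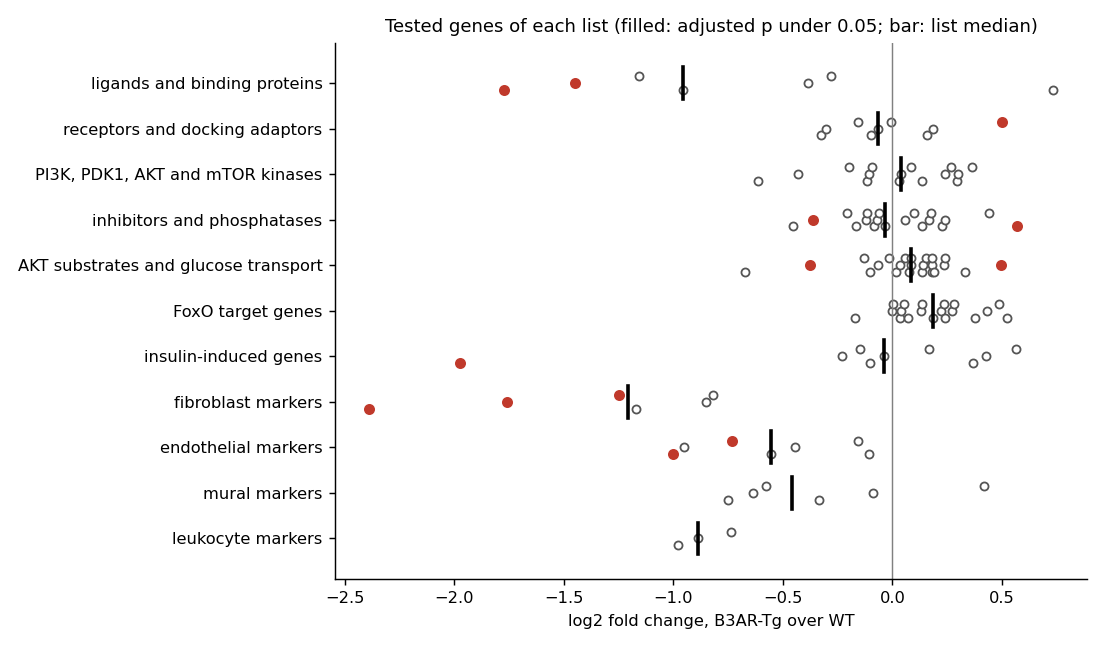
Log2 fold change of B3AR-Tg over WT (horizontal axis) for every tested gene of each list (rows); filled points have an adjusted p under 0.05 and black bars are list medians. Ligands and binding proteins (median −0.96) lie mostly to the left, and so do the fibroblast (−1.21), leukocyte (−0.89), endothelial (−0.55) and mural (−0.46) markers. The FoxO target genes have 17 of 19 points above 0, and the Akt substrates and glucose transport genes 17 of 23.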

How the data were processed

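The values are counts as the authors deposited them, whole numbers for each gene and animal that carry no scaling; per the submitters' processing notes the tools included Salmon and the build GRCm39, with rounding, strand setting and annotation not given in the sources used here. Columns were matched to animals by the names in the labels. Counts were tested with edgeR 4.0.16 in R 4.3.3 (filterByExpr with minimum count 10 and minimum total 15, TMM scaling, quasi-likelihood F test, genotype only, two-sided), with Benjamini-Hochberg adjustment over all 10945 tested genes. Standard errors were taken from the F statistic. Of the 35682 genes, 15381 had no count. Scores are means of log2 CPM (prior count 2) less each gene's mean over 16 animals. DESeq2 1.42.0 and limma 3.58.1 served as alternatives, with other scalings, filters, covariates and the removal of each animal (for the slope of Akt1 within B3AR-Tg, chosen after seeing the data). Exon lengths came from GENCODE M21 on GRCm38, matched by gene ID, and genes on the opposite strand (Vmn2r-ps88 at Insr, Gm9747 at Irs1) may share reads: the kit keeps strand, but whether counting used it is not given. Division of reads between paralogs (Insr and Igf1r, the Akt genes) is not given either. Intervals are confidence intervals for the fitted difference between genotypes, computed from its standard error. That error reflects variation between animals, but the intervals do not give the range of single animals. The test was tried on simulated data. Members and lists were chosen with earlier results of these data known. Genes named beyond the members were at most 4 per list past the threshold and the 3 genes most like a member past it; Igfals, Abhd18, Slc2a4, Tbc1d1, Igfbp4, Socs3, Odc1 and Gadd45a were named after their values were seen. Within-genotype fits hold 8 animals. Some genes past the threshold or close to a member are not reported here and were left out of the lists and their counts, and they remain in the fit over all genes.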

Additional observations from a re-analysis of the deposited data

Results flagged for a closer look

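In groups of 8 animals, a highest or lowest animal was looked for whose gap to the next took more of the group's range than Dixon's critical value of 0.526 allows, on log2(CPM + 0.1). Of 42 groups searched (the 10 members and 11 further named genes), 3 had such an animal, and chance gives about 1 in 20. Akt1 was low in WT replicate 2, where it stood at 42.7 CPM and the rest of the group lay between 81.4 and 102 CPM (gap 0.742). Akt1 was also low in B3AR-Tg replicate 7 (gap 0.544), where it stood at 47.9 CPM and the rest between 68.8 and 93.2 CPM. These animals had the highest load score of their group, 2.03 for WT replicate 2 and 0.29 for B3AR-Tg replicate 7. Igfbp3 was high in B3AR-Tg replicate 4 (0.551), at 3.74 CPM and 23 counts.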

How the results depend on the processing

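The call of Akt2 held in 25 of 28 alternatives and was lost with the replicate block, the load score and the other-cell score, the last 2 given beside it. Same-numbered animals had residual correlations of −0.219 to 0.0935, and the labels used here give no pairing beyond the number. Whether same-numbered animals share a batch was not tested. With the replicate block, Akt2 stood at 0.32 (edgeR adjusted p = 0.0774), and 230 genes passed in place of 537. Igfbp3 (−1.36), Gab1 (0.49), Phlpp1 (0.56), Grb10 (−0.36) and Eif4ebp1 (−0.36) also lost their calls with the block. Their log2 fold changes were near those without the block except for Igfbp3. With the other-cell score 28 genes passed and with the load score 7; DESeq2 gave 804. Of the listed pathway genes, 11 passed at an adjusted p under 0.1 in place of 7. Leaving out 1 animal gave 274 (without B3AR-Tg replicate 5) to 669 genes, with 275 without WT replicate 4 and 341 without B3AR-Tg replicate 8. For the load score within WT, the range was 142 to 462 genes around 324, and 206, 179 and 158 remained without WT replicates 5, 6 and 8. The sign of a log2 fold change turned for Pik3r1 (library totals 0.064, limma voom 0.029, and −0.057 to 0.034 when leaving out 1 animal), Igf2r (animal number as a covariate −0.0024, and −0.023 to 0.060), Insr (−0.00078 to 0.14), Igf1r (other-cell score 0.15, load score 0.62), Irs2 (load score −0.11) and Hdac5 (load score −0.052). Slopes on the load score within WT turned when leaving out 1 animal for Irs1 (−0.021 to 0.071), Pik3r1 (−0.10 to 0.016) and Akt1 (−0.21 to 0.14). The cause was not tested. Depth limits Igf1, which was under 2 CPM.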

Other observations

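The gene whose level followed Akt1 most closely was another gene of the pathway. Igfals, which encodes the acid-labile subunit that carries IGFs in blood and is known as a liver product, had a Pearson r of 0.928 with Akt1 over the 16 animals after removing each genotype's mean. WT replicate 2 held 3 counts of Igfals (0.255 CPM) and B3AR-Tg replicate 7 held 14 (1.09 CPM), while the other WT animals were between 2.14 and 7.27 CPM and the other B3AR-Tg animals between 2.19 and 4.68 CPM. These are the same animals in which Akt1 was lowest, and how far the correlation rests on them was not tested. Abhd18 (r = 0.860) came next. The correlation is a description over animals that share each library's scaling, and Igfals was picked out after its values were seen.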
